A study of Acipenser schrenckii with 5 samples.

Results

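The miR-30 family was represented by 16 of the 663 miRNA probes on the array used to profile microRNAs (miRNAs) in 5 tissues of the Amur sturgeon, Acipenser schrenckii. Members were taken by name: 15 probes were designed from miRBase entries of other fish whose name, after the species prefix, begins with miR-30 and no further digit, and probe novel_46 was added because its target lies within 2 edits of the target of ola-miR-30a-5p. Probe novel_46 was made for a small RNA that the study had sequenced in sturgeon and had not matched to miRBase. The prefixes dre, ola, ipu, ccr and fru stand for zebrafish, medaka, channel catfish, common carp and the pufferfish fugu. Total RNA from the brain, heart, liver, muscle and spleen of 1 fish, aged 5 months and with no treatment or genetic change named, was hybridized to single-colour (Cy3) µParaflo chips, 1 array per tissue. The label of the brain sample reads "Bain". The labels name a column kit for the extraction, whereas the methods of the study name a different reagent.

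A miRNA is cut from a hairpin precursor, and each side of the hairpin, the 5p or the 3p arm, can give a mature strand. The mature strand guides a silencing complex to messenger RNAs, chiefly through its seed, the bases 2 to 8 from its 5′ end, so miRNAs that share a seed can share targets. The miR-30 family is conserved across vertebrates and is made in many tissues from several genes whose mature 5p strands carry the letters a to e. In zebrafish, miR-30 has been tied to formation of the liver and bile ducts and, through the Hedgehog receptor component smoothened, to early muscle development. In mammals it is known in heart muscle as a repressor of connective tissue growth factor, and in kidney for its role in podocytes.

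The arm was assigned from the first bases of the target. The 11 members called 5p shared the seed GUAAACA, which that rule fixes but for its last base. The other 5 members were called 3p and shared UUUCAGU. No probe outside the 16 had a target with either seed. The seed was not used to choose the 15 named members. The 5p targets below, printed 5′ to 3′ with the seed in capitals, are those whose tissue profiles are compared most closely, and they differ from each other only outside the seed.
dre-miR-30a: uGUAAACAuucccgacuggaag
ola-miR-30a-5p: uGUAAACAuccuugacugg
novel_46: uGUAAACAuccucgacugga
dre-miR-30c: uGUAAACAuccuacacucucag
ola-miR-30c: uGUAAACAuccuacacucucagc
ipu-miR-30c: uGUAAACAuccuacacucucagcu
fru-miR-30c: uGUAAACAuccuacacucucgg
dre-miR-30e-5p: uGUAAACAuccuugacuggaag
Base positions are counted from 1 at the 5′ end. From novel_46 to ola-miR-30a-5p there was 1 substitution, C13U, and 1 base less in length. The next nearest probes to novel_46, dre-miR-30d and dre-miR-30e-5p, were each 3 edits away, 1 substitution and 2 bases in length. Probe ccr-miR-30d also differed from it by 1 substitution, with 3 bases in length. By substitutions alone ola-miR-30a-5p was thus no nearer than these. Of the 4 miR-30c probes, dre-miR-30c, ola-miR-30c and ipu-miR-30c were nested and had 22, 23 and 24 bases, and fru-miR-30c differed from dre-miR-30c by A21G alone. The other 5p members were dre-miR-30b, dre-miR-30d and ccr-miR-30d. The 19 bases of ola-miR-30a-5p equalled the first 19 of dre-miR-30e-5p, with no substitution, whereas 3 substitutions separated them from dre-miR-30a. From dre-miR-30a to dre-miR-30d there was 1 substitution, U10C, and ccr-miR-30d equalled dre-miR-30d with 1 base more at its 3′ end.

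The 3p targets are shown because their names do not all give the arm. The members ipu-miR-30a and ipu-miR-30d carry no arm in their names and have the 3p seed.
dre-miR-30e-3p: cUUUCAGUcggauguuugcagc
ola-miR-30d-3p: cUUUCAGUcugauguuugcagc
ola-miR-30a-3p: cUUUCAGUcggauguuugc
ipu-miR-30a: cUUUCAGUcugauguuugc
ipu-miR-30d: cUUUCAGUuggauguuugcugu
Within this arm, ipu-miR-30a and ola-miR-30a-3p, both of 19 bases, differed by U10G alone, and dre-miR-30e-3p and ola-miR-30d-3p, both of 22 bases, by G10U alone. The predicted hairpin of novel_46 has 64 bases. It starts with the 20 bases of the probe's target and ends, at positions 43 to 64, with a 3p stretch that matches dre-miR-30e-3p except for U15C. The differing base is in capitals in these lines.
novel_46 hairpin, 3p stretch: cuuucagucggaugCuugcagc
dre-miR-30e-3p: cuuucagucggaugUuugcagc
The array held no probe for this 3p stretch of the sturgeon hairpin itself. All names and targets except that of novel_46 are those of other fish, so a Signal below is that of sturgeon RNA on a probe designed for another species, and probes with nearly equal targets can take up the same RNA. No genome was used, and no position of a sturgeon miR-30 gene is given.

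Each probe had 5 repeat spots per array. The scanner value of a spot is its density, a raw intensity, and Signal is the background-corrected density after cyclic loess normalization between arrays, averaged over the 5 spots. Errors are SDs over spots, a technical spread within 1 array, and the 5 Signals of a probe are listed from the lowest tissue to the highest. With 1 array per tissue there are no replicates, no p-value was computed, and no difference between tissues can be set against the spread between fish. The median density of the 3315 probe spots per array lay between 92.2 in spleen and 167.68 in brain, and that of the 361 empty spots between 51.96 in heart and 98.41 in liver. The empty spots of the liver array had an SD of 58.5, against 4.91 to 17.6 on the other arrays. Markers followed the labels for most tissues. All 4 detected probes for the liver miRNA miR-122 were highest in liver, as were 14 of 14 for brain miRNAs in brain, 11 of 11 for muscle miRNAs in muscle and 8 of 11 for blood and spleen miRNAs in spleen. Of 11 probes on the list for heart miRNAs, which heart and skeletal muscle share in part, 3 were highest in heart. The muscle array also gave the highest Signal for 7 of 9 detected probes of miR-203 and miR-205, miRNAs of skin type epithelium, with a summed Signal over the 10 probes of 40055 against 249 to 1189 on the other arrays. Their part in the muscle values of miR-30 was not tested.

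The 5p arm was detected in every tissue, and of the 3p arm 1 member was. A probe was called detected where at least 50% of its spots lay above the local empty-spot median by over 3 empty-spot SDs, with a pixel SD under 0.5 of the signal. All 11 5p members were detected in all 5 tissues, and of the 3p members only ola-miR-30a-3p was. Together 12 of 16 members were detected in all 5 tissues, where the share over all 663 probes was 25.6%. By tissue, 12 members were detected in liver, where 29.7% of all probes were, 15 in heart (52.0%), 14 in spleen (50.2%), 16 in muscle (65.0%) and 15 in brain (55.8%). The number of 5p members detected was 11 on each array, so the differences between tissues came from the 3p arm alone. In all 5 tissues 11 members had Signal above 500, the level the study used for a strong signal, against 19.3% of all probes. These were the 11 5p members. In single tissues 12 members passed 500 in liver, with ola-miR-30a-3p, and 11 in each other tissue, where the shares of all probes were 32.9% in brain, 29.7% in heart, 31.1% in liver, 32.3% in muscle and 30.5% in spleen.

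Of the 5p probes, dre-miR-30a and ola-miR-30a-5p bear the letter a, but their targets are 6 edits apart, and novel_46 is nearest to ola-miR-30a-5p. The Signal of dre-miR-30a was 630 ± 170 in liver, 1114 ± 54.6 in spleen, 1171 ± 141 in heart, 1178 ± 94.7 in muscle and 2022 ± 59.5 in brain. Brain was highest, at 3.21 ± 0.87 times liver, and spleen, muscle and heart were within their spot errors of each other. The Signal of ola-miR-30a-5p was 2490 ± 130 in liver, 3016 ± 70.5 in spleen, 3049 ± 166 in heart, 4959 ± 417 in muscle and 4985 ± 246 in brain. Brain and muscle did not differ beyond spot error, at a ratio of 1.01 ± 0.098, and both lay above the other 3 tissues, of which liver was lowest. The Signal of novel_46 was 2627 ± 74.3 in spleen, 4720 ± 167 in brain, 4751 ± 481 in heart, 5072 ± 525 in muscle and 5139 ± 245 in liver. For this probe spleen stood below the 4 other tissues, at a ratio of liver to spleen of 1.96 ± 0.108, and liver and muscle did not differ beyond spot error.

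The miR-30b probe, dre-miR-30b, gave 2896 ± 593 in liver, 3378 ± 119 in heart, 3502 ± 245 in muscle, 4027 ± 236 in spleen and 5732 ± 172 in brain. Brain was 1.42 ± 0.0936 times spleen, the next tissue, and 1.98 ± 0.41 times liver, the lowest.

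After cyclic loess the 4 miR-30c probes were highest in brain and lowest in spleen, although spleen and liver did not differ beyond spot error for dre-miR-30c and ola-miR-30c. The order of the other tissues was not the same in all 4. The Signal of dre-miR-30c was 3491 ± 221 in spleen, 3759 ± 1508 in liver, 4765 ± 243 in heart, 5089 ± 471 in muscle and 6673 ± 250 in brain. Brain exceeded muscle 1.31 ± 0.131 times and spleen 1.91 ± 0.141 times. The wide liver error came from 1 of the 5 spots, with a density of 649.76 where the others had 1532.69 or more, and the median over spots gave a liver Signal of 4237. The Signal of ola-miR-30c was 3330 ± 198 in spleen, 3598 ± 132.8 in heart, 3908 ± 967 in liver, 4562 ± 458 in muscle and 5393 ± 169 in brain. The Signal of ipu-miR-30c was 4394 ± 204 in spleen, 5245 ± 115 in heart, 5897 ± 534 in muscle, 6689 ± 225 in liver and 7768 ± 251 in brain. The Signal of fru-miR-30c was 3387 ± 251 in spleen, 4522 ± 195 in heart, 4547 ± 797 in muscle, 4766 ± 326 in liver and 6534 ± 202 in brain. In all 4 the brain lead over the next tissue was larger than its spot error, from 1.16 ± 0.0542 times for ipu-miR-30c over liver to 1.37 ± 0.103 times for fru-miR-30c over liver. The next tissue was muscle for dre-miR-30c and ola-miR-30c.

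The miR-30d probe dre-miR-30d had Signals of 1941 ± 92.2 in muscle, 2091 ± 98.1 in spleen, 2192 ± 115 in heart, 2204 ± 921 in liver and 2702 ± 173 in brain. Its tissues were the closest together of all the 5p members, with brain 1.39 ± 0.111 times muscle, the lowest, and its lead over liver within spot error. Here too 1 liver spot was low, at a density of 279.97 against 1115.37 or more for the others, and the median over spots put liver at 2525. The Signal of ccr-miR-30d, the probe 1 base longer, was 1065 ± 341 in liver, 1190 ± 116 in muscle, 1415 ± 51.2 in heart, 1659 ± 99.3 in spleen and 2309 ± 121 in brain. Brain was 1.39 ± 0.111 times spleen, the next tissue, and liver and muscle were the lowest, within spot error of each other.

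The miR-30e probe of the 5p arm, dre-miR-30e-5p, gave 4679 ± 299 in heart, 5802 ± 227 in spleen, 6137 ± 438 in brain, 6205 ± 471 in liver and 6885 ± 341 in muscle. Muscle led liver by 1.11 ± 0.101 times and heart was lowest, with muscle 1.47 ± 0.119 times heart. It was 1 of 2 members of the arm, with novel_46, whose highest tissue was not brain.

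**Figure D1:**
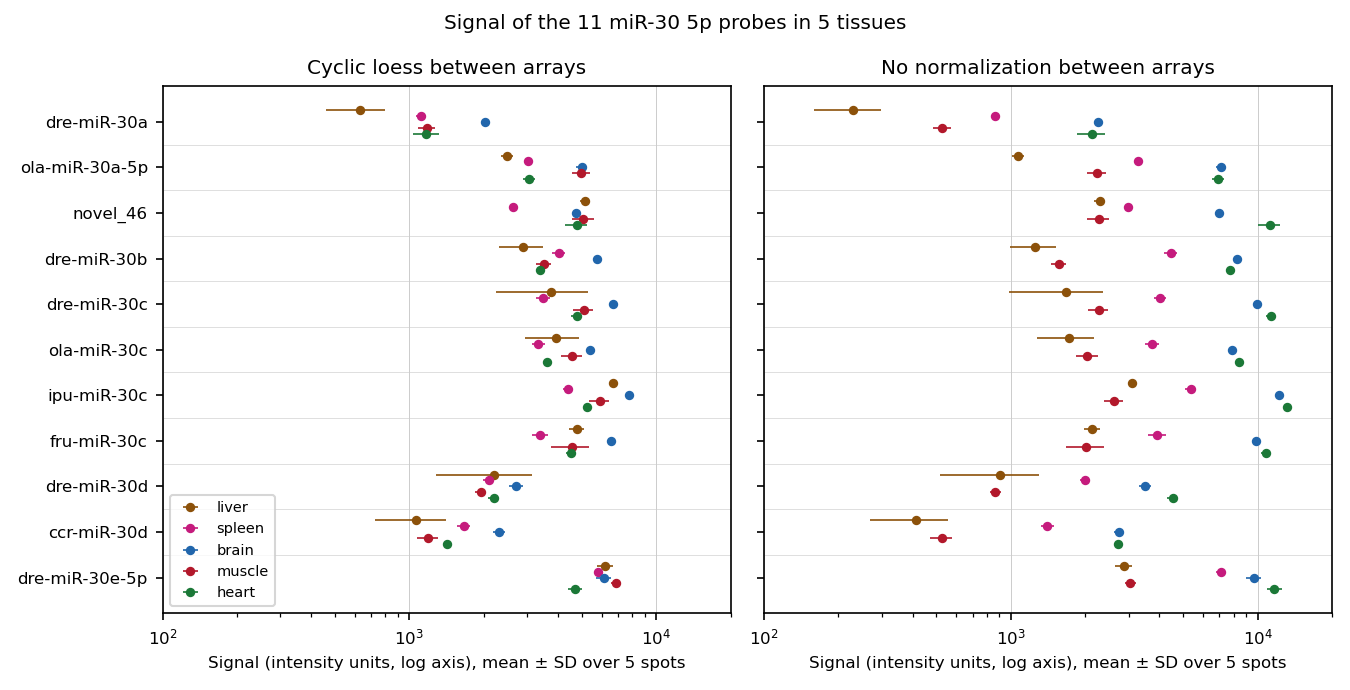
Signal (horizontal log axis, intensity units) of the 11 miR-30 5p probes in liver, spleen, brain, muscle and heart, with cyclic loess between arrays on the left and no normalization between arrays on the right. Points are means and bars SDs over 5 spots of 1 array. On the left the tissues of a probe lie within 3.21-fold and brain is highest for 9 probes. On the right they spread up to 9.86-fold and heart is highest for 7. Shares of all probes by highest tissue are not given.

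For 10 of the 11 5p members the highest tissue changed with how the arrays were put on 1 scale. The exception was dre-miR-30a, which was highest in brain and lowest in liver under all 6 ways of processing tried. After cyclic loess 9 of the 11 5p members were highest in brain, 1 in muscle and 1 in liver. Without normalization between arrays 7 were highest in heart and 4 in brain, and no member was highest in liver, spleen or muscle. The arrays as a whole differed in the same direction. The median Signal of the 170 probes detected on all 5 arrays, without normalization and relative to muscle, was 0.691 in liver, 1.31 in spleen, 2.35 in brain and 3.82 in heart. The median of the 5p members relative to muscle was 0.823 in liver, 1.83 in spleen, 3.87 in brain and 4.1 in heart. Shares of all probes by highest tissue are not given beside the counts of members, so the counts are not read as a trait of miR-30. After cyclic loess the lead over the next tissue was within spot error for dre-miR-30d, ola-miR-30a-5p and novel_46. Without normalization the brain lead over heart was within spot error for ccr-miR-30d (1.01 ± 0.0572), dre-miR-30a (1.06 ± 0.138) and ola-miR-30a-5p (1.03 ± 0.0758). Of the 170 probes, 61.2% were higher in brain than in heart after cyclic loess, and 35.3% without normalization. Of the 11 5p members, 10 and 4 were. Each array is 1 tissue, so the miRNA probes cannot tell whether heart RNA held more miRNA or the heart array more dye or gain. The calibration spots of the chips were not examined for this, so it was not tested. As an example without normalization, dre-miR-30c had 1680 ± 693 in liver, 2272 ± 208 in muscle, 4015 ± 229 in spleen, 9971 ± 330 in brain and 11303 ± 473 in heart. For novel_46 these values were 2268 ± 237 in muscle, 2288 ± 108 in liver, 2992 ± 86.2 in spleen, 6996 ± 262 in brain and 11173 ± 1145 in heart. For both probes liver and muscle were then the lowest tissues and heart the highest, and novel_46 was 1.6 ± 0.174 times as high in heart as in brain.

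Levels of the 5p members varied less between tissues than those of most detected probes after normalization. The ratio of highest to lowest tissue ran from 1.39 for dre-miR-30d to 3.21 for dre-miR-30a, with a median of 1.93. Over the 170 probes its median was 3.83. All 11 5p members stayed under a 4-fold range, as did 52.4% of the 170 probes, and 3 of the 11 passed a 2-fold range (dre-miR-30a, ccr-miR-30d and ola-miR-30a-5p), as did 80.0% of the 170. The members share sequence and can share RNA, so their like ranges are not counted as 11 separate observations. Under the 4 other ways of scaling or averaging the arrays that kept a normalization, the median range of the 5p members was 1.48 to 1.96, and that of all probes 3.79 to 4.52. Without normalization the range of the 5p members was 4.08 to 9.86, median 5.32, where that of all probes was 6.61.

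**Figure D2:**
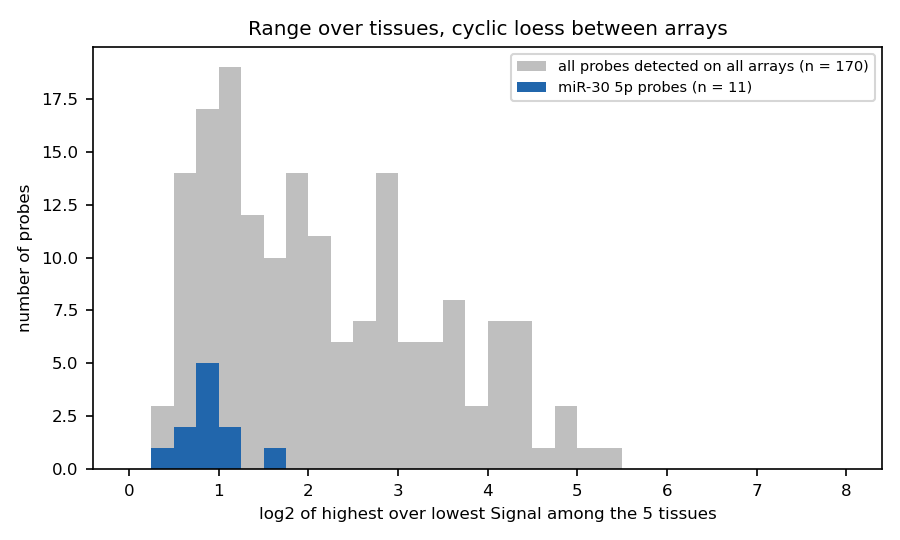
Histogram of the log2 ratio of highest to lowest Signal among the 5 tissues (horizontal axis) for the 170 probes detected on all arrays (grey) and the 11 miR-30 5p probes among them (blue), after cyclic loess; the vertical axis counts probes. The miR-30 probes sit at the narrow end, with a median log2 ratio of 0.95 and a widest value of 1.68 for dre-miR-30a.

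Each tissue was then set against the mean of the other 4, on the log2 scale. After cyclic loess the only member past 2-fold was dre-miR-30a, which was lower in liver by a log2 difference of -1.08 and higher in brain by 1.03. Among the 170 probes 8.24% were lower in liver past 2-fold and 23.5% were higher in brain, so 1 of 11 5p members in either is near or under those shares. In the other tissues and directions no member was past 2-fold. There the shares were 7.06% higher in liver, 17.1% lower in brain, 19.4% higher and 18.8% lower in spleen, 12.4% higher and 10.6% lower in muscle, and 4.71% higher and 17.1% lower in heart. Without normalization all 12 members detected on every array were past 2-fold higher in heart, where 71.2% of the 170 probes were. At that setting 11 were lower in liver (66.5% of probes), 10 lower in muscle (61.8%) and 9 higher in brain (40.0%).

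To separate what held whatever the scale, each pair of tissues was compared within each 5p member under 6 ways of processing: cyclic loess, plain background subtraction, quantile normalization, median scaling, no normalization, and the median over spots. Of 110 such comparisons 40 had the same direction under all 6 and 70 did not. A direction was counted whatever its spot error, so some of the 40 lay within that error. The ratio of liver to heart for dre-miR-30c, for example, was 0.789 ± 0.319 after cyclic loess. The share of all probes that kept a direction under all 6 is not given, so these counts are not set against it. Brain exceeded muscle under all 6 in 7 members, the largest such group, made up of ccr-miR-30d, dre-miR-30a, dre-miR-30b, dre-miR-30c, dre-miR-30d, fru-miR-30c and ipu-miR-30c. The ratio of brain to muscle for ccr-miR-30d was 1.81 to 5.25 over the 6, and for ipu-miR-30c 1.06 to 4.67. Of the 170 probes, 47.6% (plain subtraction) to 85.9% (no normalization) were higher in brain than in muscle under a single way. The muscle array is also the one on which the skin type probes were high. Liver was below brain under all 6 in ccr-miR-30d, dre-miR-30a, dre-miR-30b, dre-miR-30c and ola-miR-30a-5p, and the same 5 were below heart in liver. The brain to liver ratio of dre-miR-30a was 2.9 to 9.86. Under single ways 10.6% to 64.1% of the 170 probes were higher in liver than in brain. The shares higher in liver were 7.65% to 68.2% against heart and 16.5% to 57.6% against spleen, each lowest without normalization. Liver was also below spleen in 4 of these, at ratios of spleen to liver of 1.67 to 3.78 for dre-miR-30a and 1.2 to 3.06 for ola-miR-30a-5p. In the opposite direction, liver exceeded muscle under all 6 in dre-miR-30d, fru-miR-30c and ipu-miR-30c, where it was below muscle in dre-miR-30a and ola-miR-30a-5p. After cyclic loess the excess was within spot error for dre-miR-30d (1.14 ± 0.478) and fru-miR-30c (1.05 ± 0.197), and was 1.13 ± 0.11 for ipu-miR-30c. Under single ways 48.8% (no normalization) to 71.8% (quantile) of the 170 probes were higher in liver than in muscle. Probe novel_46 kept 1 direction, spleen below heart, with heart 1.28 to 3.73 times spleen. Neither ola-miR-30c nor dre-miR-30e-5p kept any. Spleen was below brain in all 11 members after cyclic loess, with a median ratio of 0.605, where 43.5% of the 170 probes were higher in spleen. After quantile normalization 7 of the 11 were higher in spleen, near the share of 62.9% over the 170 probes.

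The shape of a member's profile against its relatives does not depend on a common gain of an array. For this, the log2 Signal of each 5p member was expressed as its deviation from the median of the 5p members on the same array, and centred on the member's own mean over the 5 tissues. After cyclic loess this median was the Signal of ola-miR-30c in spleen, brain, muscle and heart, and that of dre-miR-30c in liver. In liver the centred deviations of dre-miR-30a and ola-miR-30a-5p from the 5p median were negative by more than the probe's own spot SD. The error of that median was not added, and dre-miR-30c, whose Signal it was, had a spot SD of 0.58 there. The deviation of ola-miR-30a-5p was smaller than that SD. The deviation of dre-miR-30a in liver was -0.75 with a spot SD of 0.39 (-1.05 to -0.73 over the 6 ways of processing), and that of ola-miR-30a-5p was -0.40 with a spot SD of 0.08 (-0.57 to -0.40). The deviations of ccr-miR-30d, -0.35 with a spot SD of 0.46 (-0.51 to -0.32), and of dre-miR-30b, -0.28 with a spot SD of 0.30 (-0.42 to -0.28), were within spot error. Probe novel_46 deviated the other way in liver, by 0.36 (0.20 to 0.36), and ipu-miR-30c by 0.30 (0.13 to 0.30). Both deviations exceeded the probe's own spot SD, 0.07 and 0.05, but were smaller than the 0.58 of dre-miR-30c. With the median over spots they were 0.20 and 0.15. The spots of dre-miR-30a in liver had densities of 198.85 to 385.61 and those of ccr-miR-30d 257.34 to 625.51, against a median of 98.41 for the empty spots of that array with their SD of 58.5. The part of that background in the 2 deviations was not tested.

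In spleen, ccr-miR-30d deviated by 0.46 (0.30 to 0.58) and dre-miR-30b by 0.37 (0.33 to 0.45), and novel_46 by -0.44 (-0.44 to -0.39). In brain, dre-miR-30a deviated by 0.41 (0.34 to 0.64), and dre-miR-30e-5p by -0.35 (-0.41 to -0.32) and novel_46 by -0.29 (-0.44 to -0.28). In muscle, ola-miR-30a-5p deviated by 0.31 (0.31 to 0.37), and ccr-miR-30d by -0.47 (-0.68 to -0.25) and dre-miR-30d by -0.36 (-0.56 to -0.22). In heart, novel_46 deviated by 0.31 (0.31 to 0.74), and dre-miR-30c by 0.22 (0.22 to 0.67). All deviations named up to here in these paragraphs kept their sign under the 6 ways of processing. Those in spleen, brain, muscle and heart were larger than the member's own spot SD. The 6 ways are not separate checks here. Median scaling and no normalization give equal deviations by construction, and the median over spots uses the cyclic loess values. The deviations of ola-miR-30c were between -0.01 and 0.04 after cyclic loess. They are no result, because its own Signal was the median in every tissue but liver.

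**Figure D3:**
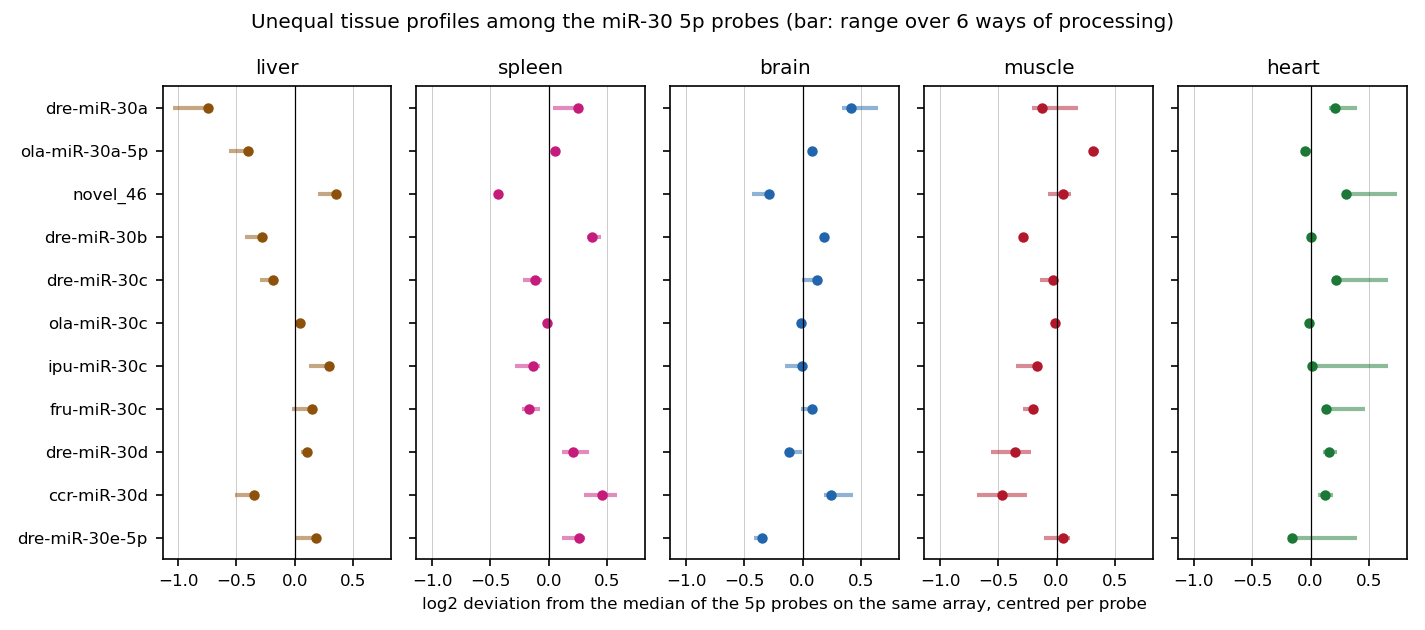
Log2 deviation of each of the 11 miR-30 5p probes from the 5p median on the same array, centred per probe (horizontal axis), in a panel per tissue. Points are the values after cyclic loess and bars the range over 6 ways of processing; dre-miR-30a lies farthest to the left in liver at -0.75, and novel_46 lies to the right in liver and heart and to the left in spleen and brain.

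The 5p members had close but not equal profiles, and the closest profiles were not always those of the closest targets. The difference between 2 profiles was taken as the root mean square over the 5 tissues of the difference in centred log2 Signal. Over 11 pairs of 5p members within 2 edits its median was 0.26 (0.14 to 0.48), and over the 44 pairs farther apart 0.34 (0.10 to 0.67). Over 14365 pairs of the 170 detected probes the median was 1.06, with 10% of pairs below 0.46. The 5p members were therefore closer together than most pairs of probes, while the ranges of near and far pairs among them overlapped. The smallest difference of all was that of fru-miR-30c with ipu-miR-30c, at 0.099. This pair counted as far, at 3 edits, through 1 substitution, G21A, and 2 bases in length. Also far, by 3 bases in length with no substitution, dre-miR-30e-5p and ola-miR-30a-5p differed by 0.36. At 7 edits, ccr-miR-30d and dre-miR-30b differed by 0.11. Such closeness was not particular to miR-30, because the probes outside the family named below lay as near its median profile as some members did. The 6 pairs of miR-30c probes differed by 0.10 to 0.25, and by no more than 0.37 under any of the 6 ways of processing. After cyclic loess the smallest difference of a near pair was that of fru-miR-30c with ola-miR-30c, at 0.142, which differ by G21A and 1 base in length, with ipu-miR-30c and ola-miR-30c next at 0.143. After quantile normalization and with the median over spots dre-miR-30c and fru-miR-30c, separated by A21G alone, were closest, at 0.196 and 0.0937. The near pair farthest apart after cyclic loess was novel_46 with ola-miR-30a-5p, at 0.48, which differ by C13U and 1 base in length. In that pair ola-miR-30a-5p was 2 ± 0.144 times as high in brain as in liver, and novel_46 was no higher in brain than in liver. Next was dre-miR-30a with dre-miR-30d at 0.46, separated by U10C alone, a pair that was the farther apart of the 2 under plain subtraction (0.55) and the median over spots (0.52). Without normalization or with median scaling both pairs differed by 0.48, and after quantile normalization both by 0.60. These probes can share RNA, and which sturgeon miRNAs each probe of a pair took up was not tested.

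Among the 3p members, ola-miR-30a-3p was the only one detected on all 5 arrays. Its Signal was 258 ± 27.6 in muscle, 371 ± 46.1 in spleen, 455 ± 28.1 in brain, 492 ± 42 in heart and 557 ± 85.9 in liver. Muscle was the lowest tissue under all 6 ways of processing, and liver was 2.16 ± 0.405 times muscle after cyclic loess. Liver and heart did not differ beyond spot error, at a ratio of 1.13 ± 0.2, and without normalization liver was at 0.347 times heart. Its profile differed from those of the 11 5p members by a median of 0.51 (0.33 to 0.74).

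The other 3p members were at or under the detection limit in at least 1 tissue. The Signal of dre-miR-30e-3p was 267 ± 17.7 in heart, 272 ± 22.4 in muscle, 300 ± 34 in spleen and 336 ± 19.8 in brain. The Signal of ola-miR-30d-3p was 211 ± 11.7 in muscle, 244 ± 24.1 in heart, 283 ± 13.8 in brain and 287 ± 15.8 in spleen. For dre-miR-30e-3p spleen did not differ from muscle or heart beyond spot error, at ratios of 1.1 ± 0.154 and 1.13 ± 0.148. The order of these tissues changed with the processing: without normalization both probes were highest in heart, with 328 ± 22.2 for dre-miR-30e-3p and 286 ± 30.2 for ola-miR-30d-3p, against 135 ± 20.2 and 124.2 ± 8.9 in spleen. In liver neither was detected, with median densities of 230.06 and 222.34, where the wide spread of the empty spots set a high limit. The lowest Signal of any detected probe in liver was 366, against 28 to 58.2 in the other tissues. The Signal of ipu-miR-30d was 87.8 ± 7.29 in brain, 82.9 ± 31.5 in muscle and 97.2 ± 4.87 in heart, and it was not detected in liver or spleen. In liver 1 of its spots had a density of 435.7 and the others 118.19 or less. The probe ipu-miR-30a was detected in muscle alone, with a median density of 86.42 against 69.81 for the empty spots, and the empty spots of the muscle array had the smallest SD of the 5 arrays, 4.91. At U10G from it, ola-miR-30a-3p was detected on all arrays.

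**Figure D4:**
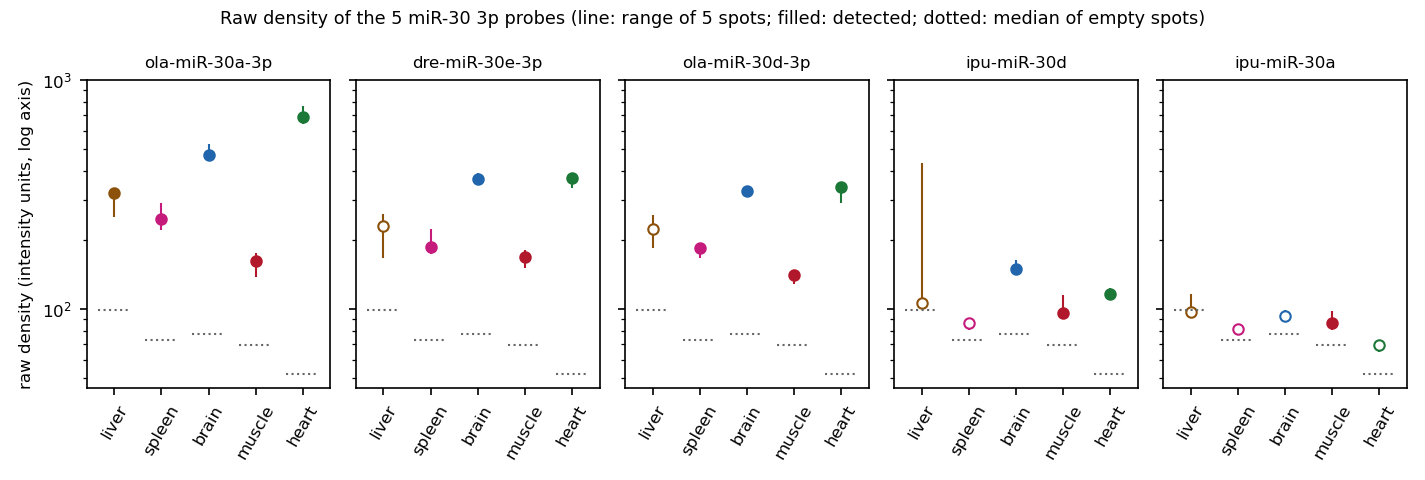
Raw density (vertical log axis, intensity units) of the 5 miR-30 3p probes in 5 tissues, before normalization. Points are medians and lines the range of 5 spots, filled points are detected, and dotted marks are the median of the empty spots on that array; ola-miR-30a-3p is filled in all tissues and ipu-miR-30a in muscle alone, and 1 high spot of ipu-miR-30d in liver reaches 435.7.

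The probes outside the family with the profile most like the median of its 12 members detected on all arrays were found among the 158 others detected on all 5 arrays, by the root mean square difference over 5 tissues. They were hhi-miR-26 (0.20), dre-miR-26b (0.20), ola-miR-27d-3p (0.21), dre-miR-26a (0.22) and dre-miR-92a (0.25). The members themselves lay from 0.10 (ola-miR-30c) to 0.42 (ola-miR-30a-3p) from that median, so these probes were within the range of the family. The Signal of hhi-miR-26 was 9998 ± 187 in spleen, 10563 ± 144 in heart, 12977 ± 484 in liver, 13229 ± 316 in brain and 14406 ± 1823 in muscle. The Signal of dre-miR-26b was 7628 ± 163 in spleen, 8076 ± 2546 in liver, 9883 ± 256 in heart, 11656 ± 236 in brain and 12130 ± 696 in muscle. Like the 4 miR-30c probes, both were lowest in spleen, but their highest tissue was muscle, within spot error of brain. The Signal of dre-miR-26a ran from 9935 ± 279 in spleen to 14407 ± 1041 in muscle, that of ola-miR-27d-3p from 465 ± 10.5 in spleen to 660 ± 33.8 in brain, and that of dre-miR-92a from 2303 ± 393 in muscle to 2925 ± 191 in spleen. Without normalization the 3 miR-26 probes were again the first 3, and the other 2 were replaced by dre-miR-92b and ola-miR-92b.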

How the data were processed

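The scanner output deposited for an array gives the density of each spot, a raw linear intensity before any background subtraction, with its SD over pixels. By the methods, arrays were scanned with a GenePix scanner and digitized with Array-Pro. The authors also deposited a table of processed intensities, whose column medians were 36.6 in heart, 22.7 in spleen, 30.4 in liver, 52.3 in muscle and 40.05 in brain. It was not used, because values with equal row names did not correlate with the scanner intensities (r of 0.01 to 0.09), and how it was scaled stays unknown for single probes.

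Background was corrected in limma 3.58.1 (R 4.3.3) by normexp with an offset of 50 over all 3968 spots, followed by cyclic loess on log2 values of the 3315 probe spots (3 iterations). The offset was then subtracted. The methods name LOWESS without parameters. Later steps used Python 3.11.15, numpy 2.4.6, pandas 2.3.3 and matplotlib 3.10.9. Local background for detection was the median of the 20 nearest empty spots. Edits are substitutions, insertions and deletions between targets. A ratio between tissues has the error propagated from the spot SDs.

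The alternatives were plain background subtraction with a floor of 1, quantile normalization, median scaling over the probes detected on all arrays, no normalization, the median over spots, detection at 5 times the SD, with a robust SD or with no limit on the pixel SD, Signal thresholds of 250 and 1000, and folds of 1.5 and 4. Values in each tissue are given for all 5p members. By the rule for naming, the near pairs with the smallest and largest profile difference and the 5 most similar probes were also named. Members, lists and rules were chosen with earlier results of these data known. On simulated data of 663 probes, with 200 changed 4-fold in 1 tissue, the direction was right for 100% of the 67 bright changed probes, and the log2 estimates were off by 0.047 in the median. Without normalization it was also right for 100%, so the simulation does not tell these ways of processing apart. Smaller changes, like most of those reported here, were not simulated. The simulated background noise was equal on all arrays, so the wide spread of the empty spots on the liver array was not simulated either. The number of arrays limits the precision. Sequencing reads and real-time PCR of the study were not analysed here.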

Additional observations from a re-analysis of the deposited data

How the results depend on the processing

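No paired analysis was possible because each tissue had 1 array. Members detected in liver, and in all 5 tissues, numbered 12, against 10 at 5 times the SD and 14 with a robust SD. At 5 times the SD not all 11 5p members were thus detected in liver, and 1 member was detected in no tissue. Counts in the other tissues were the same or nearly so. At a threshold of 250, 2 members were above it in no tissue. Members above 500 in all 5 tissues numbered 11, against 10 with plain subtraction or quantile normalization and 9 without normalization.

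The median centred log2 Signal of the 5p members was 0.49 in brain, -0.06 in heart, -0.068 in liver, 0.04 in muscle and -0.24 in spleen. Plain subtraction gave 0.17 in brain, 0.0702 in liver and -0.14 in spleen, so the sign in liver turned. The median over spots gave 0.0083 in liver, also turned. Quantile normalization gave -0.0043 in brain, 0.27 in heart, 0.0861 in liver, -0.23 in muscle and 0.15 in spleen. The sign thus turned in every tissue. The cyclic loess values in heart, liver and muscle were smaller in size than a typical spot SD of 0.0787 in log2. So was the quantile value in brain. Median scaling gave 0.21 in spleen and -0.36 in muscle, both turned. Without normalization the values were 1.11 in brain, 1.20 in heart, -1.17 in liver, -0.97 in muscle and -0.0095 in spleen. Here the signs in heart and muscle turned.

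The 5p members highest in liver numbered 1, against 5 with plain subtraction and 0 with no normalization or with the median over spots. None was highest in spleen, against 3 after quantile normalization and 2 after median scaling. In brain there were 9, against 4 with plain subtraction, 1 with quantile and 4 without normalization. In muscle there was 1, against 2 with plain subtraction, 0 without normalization or with median scaling, and 2 with the median over spots. None was highest in heart, against 5 with quantile and 7 without normalization. The shares of all probes by highest tissue are not given beside these counts.

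The median range over tissues, 1.93, was 1.48 with plain subtraction, 1.72 with quantile and 5.32 without normalization. The 1 5p member past 2-fold in some tissue became 7 at 1.5-fold, 0 at 4-fold and 11 without normalization. Shares of all probes past these folds in any tissue are not given, so the counts are no result about the family. The median difference of near pairs, 0.26, was 0.35 with quantile. Of the 5 most similar probes, 3 were shared without normalization.

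Quantile normalization turned the ratio of brain to spleen to 0.821 in ccr-miR-30d and 0.886 in dre-miR-30b, that of brain to liver to 0.894 in fru-miR-30c and 0.778 in ipu-miR-30c, and that of muscle to liver in dre-miR-30e-5p to 0.863. Plain subtraction turned these last 3 to 0.992, 0.812 and 0.966, and brain to muscle in ola-miR-30c to 0.986. Median scaling turned muscle to liver in dre-miR-30e-5p to 0.735. The causes of these changes were not tested. The liver array, with its noisy empty spots, limits what can be said of dim probes there.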
